A study of Mus musculus with 36 samples.

Results

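The 10 genes described here belong to a group of imprinted growth genes and were taken by name: *H19*, *Igf2*, *Igf2r*, *Meg3*, *Peg3*, *Mest*, *Plagl1*, *Grb10*, *Ndn* and *Sgce*. Each name matched 1 of the 55536 genes counted in every library. RNA was sequenced from immortalized mouse brown pre-adipocytes of the clones 48 and 66, both derived from a wild-type cell clone in which Cas9 had disrupted *Rxra*, so that all libraries share the *Rxra*-/- background. The lines had been infected with a pBabe retrovirus that carried either normal *Rxra* (*Rxra*WT) or *Rxra* whose serine 22 was exchanged for alanine (*Rxra*SA). Cells were grown to confluence in medium that already held insulin and triiodothyronine (day 0). Dexamethasone, isobutylmethylxanthine and indomethacin were added to this medium for the next 2 days (day 2). Until day 6 the cells were then kept with insulin and triiodothyronine. Cells were collected on each of these days. Each combination of clone, genotype and day was represented by 3 libraries, 36 in all. Each *Rxra*-/- line is 1 clone, and all libraries of clone 48 were in pool 1 and all of clone 66 in pool 2, so clone and pool cannot be told apart.

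Total counts ranged from 11351078 to 24349263 per library, with a median of 18338726. *Rxra*, which was re-expressed in every line, had between 92.6 and 712 CPM (counts scaled to library size) and does not tell the 2 genotypes apart. The summed level of 8 adipocyte marker genes was 128 to 233 CPM at day 0, 3927 to 6751 CPM at day 2 and 6942 to 11019 CPM at day 6. On each day it was higher in every library of clone 48 than in any library of clone 66. The sum of 7 pre-adipocyte markers went the other way, from 319 to 660 CPM at day 0 to between 50.4 and 141 CPM at day 2, and stood between 94.5 and 246 CPM at day 6. *Ucp1*, which defines the thermogenic brown adipocyte the cells are labelled for, had at most 5 counts in any library. The summed level of the 9 brown adipocyte markers went from medians of 43.3 CPM in clone 48 and 14.4 CPM in clone 66 at day 0 to 137 and 73.4 CPM at day 6, led by *Cox8b* (0.1005 to 38.9 CPM), *Ebf2* (13.2 to 26.4 CPM), *Ppargc1a* (13.7 to 21.8 CPM) and *Cox7a1* (0.317 to 14.1 CPM). Among 7 skeletal muscle markers *Myod1* had no count, while the muscle filament gene *Des* averaged 2.56 CPM at day 0 and 19.9 CPM at day 6. The 6 immune markers summed to between 2.77 and 11.5 CPM, nearly all from *Cd68*, which had up to 204 counts in a library. Up to 20 counts of *Csf1r* were found, and at most 1 of *Ptprc*, *Adgre1* or *Cd3e*.

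An imprinted gene is transcribed mainly from the copy inherited from one parent, under the control of DNA methylation set in the germ line. Many imprinted genes act on foetal growth and on fat tissue, and several are expressed together in proliferating progenitors and fall with maturation. *Igf2* encodes a growth factor that signals through the insulin and IGF1 receptors, *Igf2r* a receptor that removes it from the cell surface and carries lysosomal enzymes, and *Grb10* an adaptor that binds both signalling receptors and dampens them. *Plagl1* encodes a zinc finger transcription factor of the PLAG family, *Mest* a membrane enzyme whose RNA follows fat mass expansion, *Sgce* the membrane glycoprotein epsilon-sarcoglycan, *Ndn* the growth suppressor necdin and *Peg3* a zinc finger protein. *H19* and *Meg3* are long non-coding RNAs. Gene counts do not tell the parental copies apart.

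The genes fell into a detected and an undetected group. *Igf2r* and *Sgce* held 58.7% and 37.3% of all counts of the 10 genes. *Peg3* and *Ndn* had no count in any of the 36 libraries. *Igf2* had 1 count in total, in a day 6 library of clone 48 with *Rxra*SA. *Meg3* had 2 counts, both in a day 0 library of clone 66 with *Rxra*WT. *H19* had 31 counts in total and at most 4 in a library. A total of 0 counts allows a level of up to 0.00454 CPM for *Peg3* and *Ndn*, set at 3 counts over all libraries. This limit covers counting error alone.

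**Figure D1:**
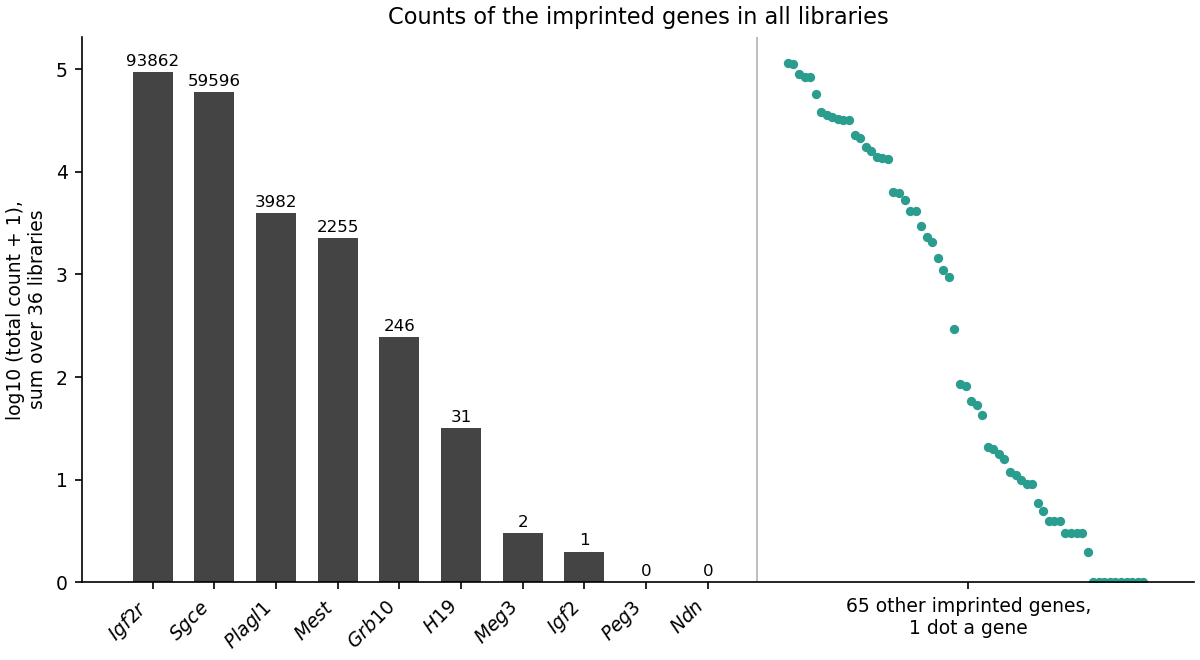
Bars give the log10 of the total count plus 1 over 36 libraries for each of the 10 genes, with the total printed above. Each dot is one of 65 other imprinted genes on the same axis, ordered by total. *Igf2r* stands highest with 93862 counts, and *Peg3* and *Ndn* stand at 0.

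Overlapping genes limited some of these values, since by its default the counting tool leaves out a read pair that meets exons of more than one gene. For *Igf2* 64.6% of the exon bases (chr7:142650766-142666816, minus strand, GRCm38) were shared with *Gm49394* or the antisense gene *Igf2os*, both without a count, and the single *Igf2* count rests on the remaining 2029 bases. For *H19* (chr7:142575529-142578143, minus strand) 9.15% and for *Meg3* (chr12:109541001-109571726, plus strand) 8.29% of exon bases were shared. No exon base of *Peg3* (chr7:6703892-6730431, minus strand) or *Ndn* (chr7:62346569-62350262, plus strand) was shared. The whole of *Ndn* lies inside the antisense gene *Gm32061*, which had 1 count in total.

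*H19* counts were not spread evenly over the clones. In clone 66, 15 of 18 libraries had at least 1 count and the sum was 27, which gives 0.0745 CPM (95% exact Poisson interval 0.0491 to 0.108). In clone 48, 3 of 18 libraries had a count and the sum was 4, which gives 0.0134 CPM (0.00365 to 0.0343). The intervals did not overlap, and they cover counting error only, not the spread between libraries. *H19* was below the expression filter and was not tested.

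The microRNAs that lie inside 4 of these genes were considered because their seed (bases 2 to 8, in capitals) sets which targets they pair with, and because the RNA of the host gene contains them. Sequences are from RefSeq on GRCm38.p6, written 5′ to 3′, with all 8 mature forms matched by name and 8 different seeds among them. The arms of the microRNA in *Mest* and the 5p arms in *H19*, *Igf2* and *Meg3* are:
mmu-miR-335-5p: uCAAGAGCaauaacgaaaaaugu
mmu-miR-335-3p: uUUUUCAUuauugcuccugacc
mmu-miR-675-5p: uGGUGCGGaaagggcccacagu
mmu-miR-483-5p: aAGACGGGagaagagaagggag
mmu-miR-770-5p: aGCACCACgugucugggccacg
*Mir675*, *Mir483* and *Mir770* had no count in any library. All bases of *Mir675* and *Mir770* lie within exons of *H19* and *Meg3*, where the counting leaves out read pairs, so their 0 counts carry no information. *Mir335*, whose host *Mest* was detected in every library, had 12 counts in 10 libraries and at most 3 in one. These counts come from longer RNA fragments on the hairpin and do not measure the mature microRNA.

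Levels were compared between genes per exon length, as FPKM from TMM-scaled counts. Over the 36 libraries the median was 14.8 FPKM for *Igf2r* (5.28 to 38.5), 8.25 FPKM for *Sgce* (2.69 to 16.4), 0.813 FPKM for *Mest* (0.320 to 1.51), 0.646 FPKM for *Plagl1* (0.221 to 2.28) and 0.0303 FPKM for *Grb10* (0 to 0.164). The ranges of *Igf2r* and *Sgce* overlapped, and so did those of *Mest* and *Plagl1*. The lowest *Sgce* library lay above the highest library of *Mest*, *Plagl1* and *Grb10*, and the highest *Grb10* library lay below the lowest *Plagl1* library. These 5 genes passed the filter on low counts and the other 5 did not, so the tests below cover 5 of the 10 genes. A fold change among them is the output of edgeR's quasi-likelihood test, with p-values adjusted by the Benjamini-Hochberg method over all genes tested.

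Promoter sequence was examined for the 8 genes with a RefSeq promoter window, which excludes *H19* and *Sgce*. The 250 bases before each of their 15 starts were used. The stretches of *Igf2r*, *Plagl1* and *Grb10*, which were detected, and of *Peg3* and *Ndn*, which were not, are shown with CpG sites in capitals. The stretches were not matched to the regions that carry imprints, and a link of CpG content to detection was not tested. The strand is that of the gene, on GRCm38.p6.
*Igf2r*, chr17:12769707-12769956, minus strand: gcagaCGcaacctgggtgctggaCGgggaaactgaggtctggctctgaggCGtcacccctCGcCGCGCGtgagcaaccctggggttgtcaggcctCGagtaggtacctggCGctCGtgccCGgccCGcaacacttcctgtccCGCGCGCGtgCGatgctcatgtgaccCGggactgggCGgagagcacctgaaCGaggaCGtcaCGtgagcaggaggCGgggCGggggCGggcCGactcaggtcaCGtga
*Plagl1*, chr10:13090582-13090831, plus strand: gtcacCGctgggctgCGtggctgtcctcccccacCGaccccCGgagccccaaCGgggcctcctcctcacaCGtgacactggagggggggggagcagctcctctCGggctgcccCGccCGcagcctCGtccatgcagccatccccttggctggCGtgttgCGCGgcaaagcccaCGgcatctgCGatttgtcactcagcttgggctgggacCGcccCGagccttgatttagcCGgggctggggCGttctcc
*Grb10*, chr11:12037421-12037670, minus strand: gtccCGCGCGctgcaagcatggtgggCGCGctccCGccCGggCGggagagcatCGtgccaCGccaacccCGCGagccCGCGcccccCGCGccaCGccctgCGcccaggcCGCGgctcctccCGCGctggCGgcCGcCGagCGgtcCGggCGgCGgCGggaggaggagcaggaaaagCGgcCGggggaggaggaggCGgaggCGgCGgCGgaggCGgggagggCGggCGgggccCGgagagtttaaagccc
*Peg3*, chr7:6730420-6730669, minus strand: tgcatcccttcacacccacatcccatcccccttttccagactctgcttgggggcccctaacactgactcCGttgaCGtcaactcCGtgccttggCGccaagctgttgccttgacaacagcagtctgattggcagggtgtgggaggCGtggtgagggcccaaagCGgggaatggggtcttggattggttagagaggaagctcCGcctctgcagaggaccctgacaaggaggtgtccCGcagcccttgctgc
*Ndn*, chr7:62348027-62348276, plus strand: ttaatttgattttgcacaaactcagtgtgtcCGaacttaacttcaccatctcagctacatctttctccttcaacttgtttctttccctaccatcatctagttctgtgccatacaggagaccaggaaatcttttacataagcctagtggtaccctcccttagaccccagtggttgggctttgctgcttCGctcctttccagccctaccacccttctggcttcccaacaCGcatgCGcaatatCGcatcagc
The *Grb10* stretch held 40 CpG sites and the *Igf2r* stretch 27, and the *Plagl1* stretch held 19. The *Peg3* stretch held 8 and the *Ndn* stretch 5. Across 32851 promoter stretches of the same length the median was 6 and the upper quartile 16. A second *Grb10* start had 8 CpG sites, the *Mest* starts 7 or 14, the *Meg3* starts 0 or 10 and the *Igf2* starts 1 to 22. RXRα and its partners bind AGGTCA half-sites. On both strands, AGGTCA was found in 3 of the 15 stretches, 1 each of *Igf2r*, *Igf2* and *Meg3*, against 14.0% of all stretches. A direct repeat of 2 half-sites 1 base apart (DR1) was in none of the 15 and in 0.0335% of all. GGGGCCCC, a core of the motif of PLAG factors, was in the *Peg3* stretch and in 0.889% of all.

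Time in differentiation was compared first, with genotypes averaged and a term for the clone. All 5 tested genes differed between day 0 and day 2, *Mest*, *Plagl1* and *Grb10* being higher at day 2 and *Sgce* and *Igf2r* lower. *Grb10* passed the filter only through its later libraries, so its differences from day 0 are partly set by the filter. Of the 16723 genes tested, 35.8% were called higher and 37.5% lower, so that most genes were called in this comparison. With scaling by library size alone, 4190 genes were higher and 8264 lower, in place of 5989 and 6270, and the median of all genes shifted from -0.02 to -0.27. The directions of the 5 genes were the same under both scalings in each comparison in which they were called. Between days 2 and 6, *Sgce* rose and *Plagl1* and *Grb10* fell, where 31.9% of all genes were called higher and 30.1% lower. The fall of *Plagl1* and *Grb10* was called in clone 66 and not in clone 48, and the difference between clones was called for both genes (log2 differences of -1.34 and -2.49). In clone 48 the mean of *Grb10* was higher at day 6 (0.506 CPM) than at day 2 (0.376 CPM). Between days 0 and 6, *Mest*, *Plagl1* and *Grb10* were higher and *Igf2r* lower, where 32.9% were called higher and 35.4% lower (5505 and 5919 genes, or 4155 and 7758 when scaled by library size alone, with a median of -0.22 in place of -0.03). The 3 comparisons share libraries. Same-numbered *Rxra*WT and *Rxra*SA libraries of a clone and day deviated together but were counted as independent. The SE and p-values of the tests between days and between clones can therefore be too small. In whole cultures, fewer cells of a type and less RNA per cell cannot be told apart.

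**Figure D2:**
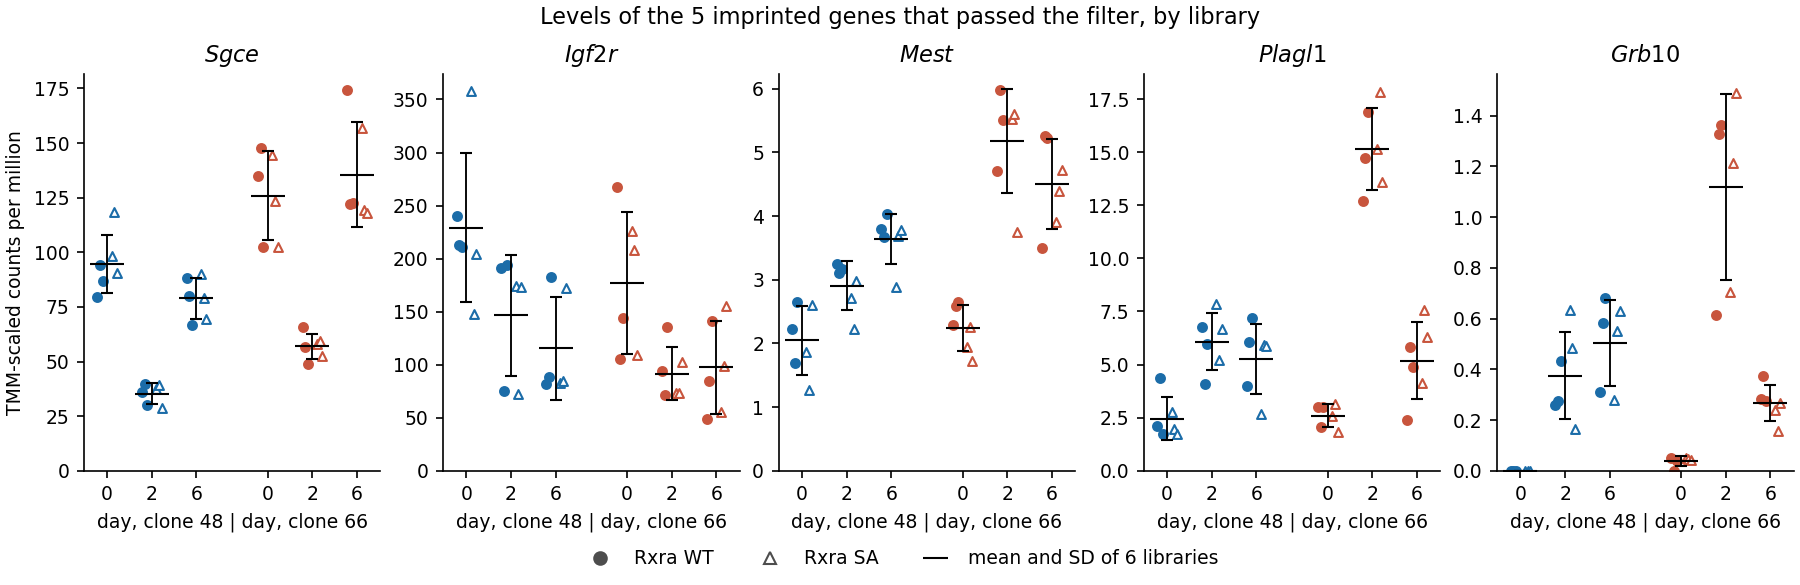
Each panel gives TMM-scaled CPM of one gene on a linear axis from 0, with one point per library, filled circles for *Rxra*WT and open triangles for *Rxra*SA. Days 0, 2 and 6 of clone 48 (blue) are followed by those of clone 66 (red), and bars give the mean and SD of 6 libraries. *Sgce* is lowest at day 2 in both clones, and *Plagl1* and *Grb10* peak at day 2 in clone 66.

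*Sgce* (ENSMUSG00000004631.15, chr6:4674350-4747207, minus strand) fell at day 2 and returned by day 6. In clone 48 its lowest, median and highest values were 79.3, 92.4 and 118 CPM at day 0, 28.6, 36.8 and 39.9 CPM at day 2 and 66.9, 79.4 and 89.9 CPM at day 6. In clone 66 they were 102, 129 and 148 CPM, then 48.9, 57.4 and 65.7 CPM, then 118, 122 and 174 CPM. Day 2 libraries overlapped with those of no other day in either clone, and day 0 and day 6 libraries overlapped in both. The fold change from day 0 to day 2 was 2.44-fold down (log2 -1.29 ± 0.09 SE, adjusted p = 9.7e-15), and that from day 2 to day 6 was 2.31-fold up (1.21 ± 0.09, adjusted p = 1.1e-13). Between days 0 and 6 the difference was -0.08 ± 0.09 (adjusted p = 0.44, 95% interval -0.26 to 0.10), and -0.27 ± 0.09 when scaled by library size alone (adjusted p = 0.012). Within clone 48 this last difference was -0.23 ± 0.13 (adjusted p = 0.12), and -0.24 ± 0.08 with the replicate block (adjusted p = 0.015). *Peg10*, a retrotransposon-derived imprinted gene that starts 99 bases from *Sgce* on the other strand, took another course. Its mean was 208, 102 and 60.6 CPM on days 0, 2 and 6, with a log2 change of -0.97 ± 0.35 from day 0 to day 2 (adjusted p = 0.014) and -0.68 ± 0.35 from day 2 to day 6 (adjusted p = 0.095).

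*Igf2r* (ENSMUSG00000023830.14, chr17:12682406-12769664, minus strand), the scavenger receptor for IGF2, was highest at day 0. In clone 48 its lowest, median and highest values were 148, 212 and 358 CPM at day 0, 72.2, 174 and 194 CPM at day 2 and 81.6, 86.5 and 183 CPM at day 6. In clone 66 they were 105, 176 and 268 CPM, then 71.2, 83.9 and 135 CPM, then 49.1, 91.9 and 156 CPM. The days overlapped in both clones. The log2 change was -0.79 ± 0.22 at day 2 (1.73-fold down, adjusted p = 0.0015) and -0.92 ± 0.22 at day 6 (1.89-fold down, adjusted p = 0.00037), both against day 0, and -0.13 ± 0.22 between days 2 and 6 (adjusted p = 0.63). Within clone 48 the change at day 2 was -0.61 ± 0.32 (adjusted p = 0.10), and -0.70 ± 0.28 with the replicate block (adjusted p = 0.026). The calls within clones hung on single libraries. At day 2 in clone 66, -0.90 ± 0.33 (adjusted p = 0.017) became -0.69 (adjusted p = 0.079) without the day 0 *Rxra*WT replicate 1 and -0.80 (adjusted p = 0.0503) without the day 2 *Rxra*WT replicate 2. At day 6 the change against day 0 was -0.96 ± 0.33 in clone 48 (adjusted p = 0.013), or -0.74 (adjusted p = 0.068) without the day 0 *Rxra*SA replicate 1, and -0.81 ± 0.32 in clone 66 (adjusted p = 0.034), which rose to an adjusted p of up to 0.14 when 1 of 7 libraries was left out.

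The spread of *Igf2r* followed the replicate number. Libraries of *Rxra*WT and *Rxra*SA from the same clone, day and replicate number differed by a median of 1.12-fold (18 pairs), while those with different numbers differed by a median of 1.65-fold (36 pairs). At day 2 in clone 48, for example, replicate 2 had 75.2 CPM with *Rxra*WT and 72.2 CPM with *Rxra*SA, while the other 4 libraries lay between 174 and 194 CPM. The tests between days and between clones counted such pairs as independent libraries, so the SE and p-values of *Igf2r* can be too small. *Sgce* differed by 1.04-fold within and 1.20-fold between numbers, *Mest* by 1.17-fold and 1.22-fold and *Plagl1* by 1.26-fold and 1.24-fold. *Airn*, the antisense RNA that silences *Igf2r* in cis on the paternal chromosome, covers 5.58% of the exon bases of *Igf2r* within its span, and the counting ignored strand. *Airn* averaged 4.01, 1.74 and 3.72 CPM on days 0, 2 and 6, against 203, 119 and 106 CPM of *Igf2r*. Its part in the *Igf2r* values was not tested.

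*Mest* (ENSMUSG00000051855.15, chr6:30723547-30748465, plus strand) was low, with 22 to 108 counts per library, and rose. In clone 48 its lowest, median and highest values were 1.26, 2.04 and 2.65 CPM at day 0, 2.22, 3.04 and 3.25 CPM at day 2 and 2.89, 3.73 and 4.03 CPM at day 6. In clone 66 they were 1.73, 2.27 and 2.65 CPM, then 3.75, 5.51 and 5.97 CPM, then 3.50, 4.56 and 5.26 CPM. All 12 day 6 libraries lay above all 12 day 0 libraries. The change was 1.84-fold at day 2 (log2 0.88 ± 0.12, adjusted p = 6.9e-08) and 1.89-fold at day 6 (0.92 ± 0.12, adjusted p = 3.0e-08) against day 0, with 0.04 ± 0.12 between days 2 and 6 (adjusted p = 0.79). Under scaling by library size alone the first was 0.62, and within clone 48 the change from day 0 to day 2 was then 0.26 (adjusted p = 0.15), in place of 0.54 ± 0.16 (adjusted p = 0.0038). *Mest* shares 23.1% of its exon bases with the antisense gene *Copg2*, which was far more abundant (118, 186 and 227 CPM on days 0, 2 and 6) and also rose, by 0.66 ± 0.07 from day 0 to day 2 (adjusted p = 6.1e-10). By its default the counting leaves out read pairs that meet exons of both genes. All 912 *Mest* exon bases within the span of *Copg2* were such shared bases, so *Mest* counts rest on the other 3033. The pairs lost in this way leave the level of *Mest* uncertain, and its FPKM, divided by all exon bases, is too low. Any part of *Copg2* in the *Mest* values was not tested.

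*Plagl1* (ENSMUSG00000019817.18, chr10:13060504-13131694, plus strand) peaked at day 2. In clone 48 its lowest, median and highest values were 1.73, 2.04 and 4.36 CPM at day 0, 4.08, 6.31 and 7.85 CPM at day 2 and 2.67, 5.90 and 7.20 CPM at day 6. In clone 66 they were 1.81, 2.80 and 3.15 CPM, then 12.7, 14.9 and 17.8 CPM, then 2.37, 5.37 and 7.58 CPM. The day 2 libraries of clone 66 stood clear of all others, whereas in clone 48 neighbouring days overlapped. The change was 4.01-fold from day 0 to day 2 (log2 2.00 ± 0.22, adjusted p = 4.2e-10) and -0.92 ± 0.21 from day 2 to day 6 (1.90-fold down, adjusted p = 0.00024). At day 6 the gene was still 2.11-fold above day 0 (1.08 ± 0.22, adjusted p = 4.5e-05).

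*Grb10* (ENSMUSG00000020176.17, chr11:11930508-12038683, minus strand), the receptor-binding adaptor, went from almost no counts to a low level. At day 0 all 6 libraries of clone 48 had 0 counts and those of clone 66 had 5 counts together, at most 1 each. At day 2 the libraries of clone 48 had 3 to 10 counts (median 5.5) and those of clone 66 had 11 to 29 (median 22.5). At day 6 they had 5 to 12 (median 9.5) and 3 to 7 (median 5). No day 0 library overlapped with any later library. Against 3 counts over the 6 day 0 libraries, the summed counts of clone 48 were at least 13.1-fold higher at day 2 and at least 17.9-fold higher at day 6. In clone 66 the ratio of summed counts was 29.4 at day 2 (95% counting interval 12.3 to 92.3) and 6.96 at day 6 (2.68 to 22.9). The comparison of days over both clones was called by edgeR for days 2 and 6 against day 0 (adjusted p = 4.2e-11 and 6.6e-08). With at most 1 count in a day 0 library, *Grb10* passed the filter on low counts only through its later libraries. These calls are therefore partly set by the filter. From day 2 to day 6 the log2 change over both clones was -0.91 ± 0.29 (adjusted p = 0.0073). The clones differed in this step. The ratio of summed counts at day 6 to day 2 was 0.236 in clone 66 (95% counting interval 0.154 to 0.353). In clone 48 it was 1.37 (0.873 to 2.16).

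**Figure D3:**
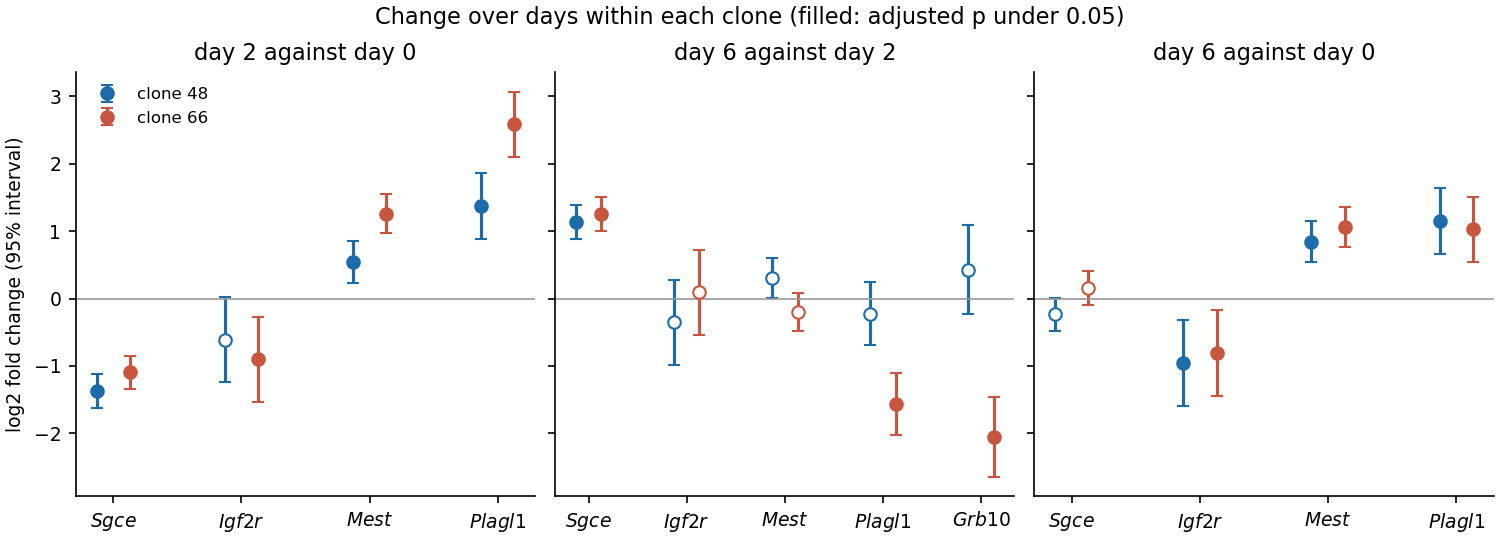
Points give the log2 fold change between days within each clone (blue 48, red 66) and lines its 95% interval. Filled points have an adjusted p under 0.05. *Grb10* is shown only for day 6 against day 2, since it had no counts at day 0 in clone 48. *Plagl1* and *Grb10* fall after day 2 in clone 66, while in clone 48 their intervals include 0.

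The clones were compared next, with a term for each clone, genotype and day, over 17589 genes. Their libraries differ in pool as well as clone, and the adipocyte markers were higher in clone 48 on each day. The part of either in these differences was not tested. *Sgce* was higher in clone 66 on each day, with log2 differences of 0.41 ± 0.13 (day 0, adjusted p = 0.019), 0.69 ± 0.13 (day 2, adjusted p = 0.00012) and 0.80 ± 0.13 (day 6, adjusted p = 1.8e-05). At day 2, 4 of the 5 genes were higher in clone 66. *Plagl1* was 2.50-fold higher (1.32 ± 0.23, adjusted p = 6.4e-05), *Grb10* 3.00-fold (1.58 ± 0.30, adjusted p = 0.00020) and *Mest* 1.78-fold (0.83 ± 0.15, adjusted p = 7.5e-05). For *Plagl1*, *Mest* and *Sgce* no library of clone 48 reached the lowest of clone 66. The share of all genes without overlap between the clones was not determined. *Igf2r* was -0.68 ± 0.32 (adjusted p = 0.12), and -0.67 ± 0.22 when edgeR was run without a filter (adjusted p = 0.036). Of all genes 11.7% were called higher and 11% lower in clone 66 at day 0. At day 2 these shares were 13.7% and 14.9%. At day 6 they were 13.5% and 11.5%.

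Outside *Sgce*, the clones differed in no tested member at day 0 or day 6 by this test. *Grb10* missed the threshold at day 6 with -0.90 ± 0.34 (adjusted p = 0.053), with 0.506 ± 0.170 CPM in clone 48 and 0.266 ± 0.070 CPM in clone 66 (SD, n = 6), and alternatives gave an adjusted p between 0.031 and 0.12. *Plagl1* was at 5.28 ± 1.65 and 5.19 ± 1.82 CPM (log2 difference -0.02, 95% interval -0.49 to 0.45). At day 0 *Grb10* had 0 counts in clone 48 against 5 in clone 66 (adjusted p = 0.067, between 0.049 and 0.25 under alternatives), for which no fold is given. The day 0 interval for *Plagl1* was -0.39 to 0.60 and for *Mest* -0.20 to 0.41.

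Changes over time were then compared between clones. From day 0 to day 2, *Plagl1* rose by 2.59 ± 0.25 in clone 66 and by 1.38 ± 0.25 in clone 48, a difference of 1.21 ± 0.35 (adjusted p = 0.029). *Mest* rose by 1.26 ± 0.15 and 0.54 ± 0.16, a difference of 0.72 ± 0.22 (adjusted p = 0.041). Of all genes 3.43% had a positive and 2.79% a negative difference of this kind. From day 2 to day 6, *Grb10* fell by 2.06 ± 0.30 in clone 66 and stood at 0.43 ± 0.33 in clone 48 (adjusted p = 0.30), a difference of -2.49 ± 0.45 (adjusted p = 0.00084). *Plagl1* fell by 1.56 ± 0.24 and stood at -0.22 ± 0.24 (adjusted p = 0.47), a difference of -1.34 ± 0.33 (adjusted p = 0.012). Here 3.17% of all genes were positive and 2.64% negative. Over the whole course from day 0 to day 6 none of the 5 genes was called by edgeR (2 had an unadjusted p under 0.05), where 2.17% and 1.46% of all genes were. With the replicate block *Sgce* was called in that comparison, at 0.39 ± 0.12 (adjusted p = 0.038).

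The calls of this difference in *Mest* and *Plagl1* from day 0 to day 2 lay near the threshold, and *Mest* had only 22 to 108 counts per library. For *Mest* the adjusted p was between 0.010 and 0.14 with each of the 36 libraries left out in turn and rose above 0.05 in 20 of them. It was largest without the day 0 *Rxra*SA replicate 3 of clone 48 (log2 difference 0.55, adjusted p = 0.14). Some of the libraries were of day 6, outside this comparison, such as the *Rxra*WT replicate 1 of clone 48 (0.71, adjusted p = 0.054 without it). For *Plagl1* the adjusted p rose above 0.05 in 8 of the 36 fits, the largest being without the day 0 *Rxra*WT replicate 2 of clone 48 (log2 difference 0.95, adjusted p = 0.10). The other 7 were, in clone 48, the day 0 *Rxra*SA replicate 1 and replicate 2 of both genotypes at day 2, and, in clone 66, the day 0 *Rxra*WT replicate 2, the day 2 *Rxra*SA replicate 2, the day 0 *Rxra*SA replicate 3 and the day 2 *Rxra*WT replicate 3. The differences from day 2 to day 6 had an adjusted p of at most 0.0024 for *Grb10* and 0.028 for *Plagl1* with any library left out.

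The study's question was whether residue 22 of RXRα matters for transcription in these cells. None of the 5 tested genes differed between *Rxra*SA and *Rxra*WT at day 0, 2 or 6 by edgeR's test, with an adjusted p of 1 throughout. None had an unadjusted p under 0.05, and neither DESeq2 nor the newer edgeR test called any. Of all genes 0% were called on each of the 3 days and 0% in each of the 3 interactions of genotype and time, while 139, 162 and 125 genes had an unadjusted p under 0.05 at days 0, 2 and 6. Tests of whether the genotype effect differed between clones also called 0% of genes on each day and none of the 5 genes, with 305, 242 and 222 of all genes and none of the 5 at an unadjusted p under 0.05. DESeq2 called none either. With a block for each same-numbered pair within a day, 0, 1 and 0 of 18086 genes were called between genotypes at days 0, 2 and 6, with 778, 756 and 527 at an unadjusted p under 0.05. The same fit called 4, 1 and 3 genes for a genotype effect that differed between clones, with 3129, 709 and 1290 at an unadjusted p under 0.05. None of the 5 genes was among those called.

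**Figure D4:**
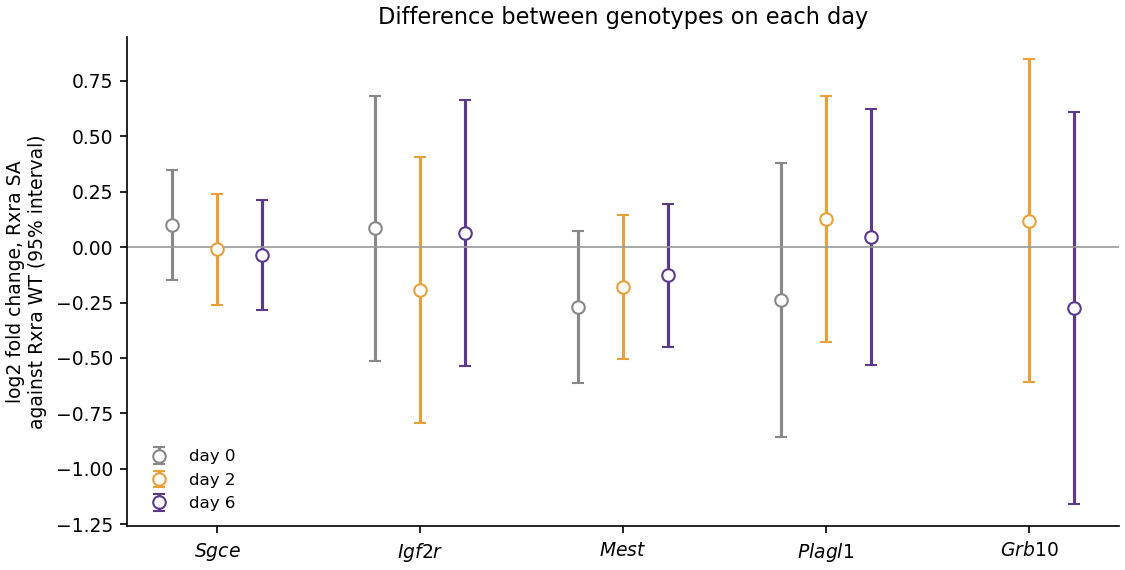
Points give the log2 fold change of *Rxra*SA against *Rxra*WT at days 0 (grey), 2 (orange) and 6 (purple), and lines its 95% interval. The model held both clones and did not pair libraries by replicate number. All intervals include 0, and those of *Sgce* are the narrowest. *Grb10* at day 0 is left out, as it had at most 1 count per library.

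The intervals bounded the genotype effect unequally. They come from the fit that did not pair libraries by replicate number, so they include the spread between numbers. For *Igf2r* that spread was a median of 1.65-fold, against 1.12-fold within a number. For *Sgce* they ran from -0.15 to 0.35 at day 0, -0.26 to 0.24 at day 2 and -0.28 to 0.21 at day 6. For *Igf2r* they ran from -0.51 to 0.68, -0.79 to 0.41 and -0.54 to 0.66, and for *Plagl1* from -0.86 to 0.38, -0.43 to 0.68 and -0.53 to 0.62. *Mest* had a lower value with *Rxra*SA in 6 of 6 same-numbered pairs at day 0, 5 of 6 at day 2 and 4 of 6 at day 6. In clone 66 at day 0 it was 2.51 ± 0.189 CPM with *Rxra*WT and 1.98 ± 0.265 CPM with *Rxra*SA (SD, n = 3), without overlap. Of the genotype comparisons within a clone and day for the tested genes, 3 were without overlap and 27 overlapped. The share over all genes was not determined. The log2 difference of *Mest* over both clones at day 0 was -0.27 ± 0.18, and under a block for each same-numbered pair within the day its adjusted p was 0.82. *Grb10* was lower with *Rxra*SA in 6 of 6 pairs at day 6, at 0.311 ± 0.056 against 0.222 ± 0.058 CPM in clone 66 and 0.525 ± 0.191 against 0.487 ± 0.185 CPM in clone 48 (SD, n = 3). Its log2 difference was -0.27 ± 0.45. These 2 genes were singled out after their values were seen, and neither difference passed the test.

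The pattern of each gene over the 12 means of clone, genotype and day was set beside 11623 genes outside this group whose log2 CPM averaged at least 1. The most alike were *Dnaic2* (r = 0.990) and *Lgals9* (0.988) for *Sgce*, *Cxcl12* (0.984) and *Ttc8* (0.979) for *Igf2r*, and *Sik1* (0.964) and *Prickle1* (0.964) for *Mest*. They were *Il6ra* (0.983) and *Gm27028* (0.981) for *Plagl1*, and *B3gat3* (0.984) and *Gm4032* (0.979) for *Grb10*. The points share libraries and the strong effect of time, and between 100 and 378 genes per member exceeded 0.9. Among the 5 genes, *Plagl1* and *Grb10* were the most alike (r = 0.935 over the same 12 means) and *Igf2r* and *Mest* the most opposed (-0.940).

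Other imprinted genes also included detected and undetected ones, as did all genes, of which 36853 of 55536 had a count. The share of all genes with fewer than 10 counts in every library was not determined. Of 65 listed, 32 had fewer than 10 counts in every library and 10 had none, among them *Magel2* and *Peg12* next to *Ndn*, *Usp29* next to *Peg3*, *Dio3* near *Meg3* and *Ins2* near *Igf2*. The other end included *Copg2*, *Nap1l4* and *Peg10*, and 29 of the 65 were counted in all 36 libraries. Of the 31 tested, 7 were higher and 16 lower at day 2 than at day 0, with a median of -0.29 against -0.02 for all genes, of which 35.8% were higher and 37.5% lower. From day 2 to day 6, 16 were higher and 7 lower (median 0.24 against 0.01, with 31.9% and 30.1% of all genes called), and from day 0 to day 6, 13 were higher and 10 lower (-0.09 against -0.03, with 32.9% and 35.4% called). The largest changes from day 0 to day 2 were those of the amino acid transporter gene *Slc38a4* (log2 -4.78 ± 0.16, adjusted p = 1.1e-23), the matrix proteoglycan gene *Dcn* (-3.18 ± 0.46), *Ampd3* (-3.06 ± 0.23) and *Qpct* (-2.65 ± 0.27). From day 2 to day 6 *Qpct* (3.14 ± 0.26), *Dcn* (2.47 ± 0.49), *Pon3* (2.34 ± 0.23) and *Peg13* (1.91 ± 0.10) led.

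Between clones, 6 of the 31 were higher and 4 lower in clone 66 at day 0, where 11.7% and 11% of all genes were. The numbers were 5 higher and 3 lower at day 2 (13.7% and 14.9% of all genes), and 6 higher and 5 lower at day 6 (13.5% and 11.5%). The paraoxonase gene *Pon3* was lower in clone 66, with log2 differences of -6.13 ± 0.24, -5.37 ± 0.31 and -4.72 ± 0.21 on the 3 days, and its neighbour *Pon2* with -1.29 ± 0.15, -1.48 ± 0.16 and -1.67 ± 0.15. *Dcn* was higher in clone 66 by 5.33 ± 0.67 at day 0 and 3.85 ± 0.67 at day 6, with a highest count of 48.

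Of the genes that act with IGF2, IGF2R and GRB10, 12 of 17 were tested. At day 2, 5 were higher and 6 lower than at day 0 (median -0.27), and at day 6, 6 were higher and 5 lower (median 0.03). The shares over all genes were 35.8% and 37.5% at day 2, and 32.9% and 35.4% at day 6. While *Igf2* was not detected, *Igf1*, the other IGF ligand, averaged 10.3, 21.7 and 116 CPM on days 0, 2 and 6 (log2 3.57 ± 0.40 from day 0 to day 6, adjusted p = 9.8e-10). *Igf1* was higher in clone 66 at day 0 (2.71 ± 0.25) and lower at days 2 (-0.68 ± 0.23) and 6 (-0.73 ± 0.22). The insulin receptor gene *Insr* rose by 1.76 ± 0.13 to day 6, and *Irs2*, a docking protein of that receptor, rose by 2.98 ± 0.16 to day 2 and then fell by 1.65 ± 0.15. The binding protein gene *Igfbp4* rose by 4.38 ± 0.22 to day 6 and *Igfbp6* fell by 3.35 ± 0.14. *Igf1r*, the receptor through which both ligands signal, fell by 1.24 ± 0.15, and *M6pr*, the second mannose 6-phosphate receptor beside *Igf2r*, rose by 0.28 ± 0.09. *Grb14* and *Grb7*, the paralogs of *Grb10*, had at most 4 and 7 counts in any library.

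Factors that keep imprints were listed too, with 18 of 20 tested by day. At day 2, 3 were higher and 5 lower than at day 0 (median -0.0049), and at day 6, 7 were higher and 9 lower (median -0.23), set against the same shares over all genes. *Zfp57*, which protects methylated imprinting control regions, fell by 3.75 ± 0.18 to day 2 and stood at -3.86 ± 0.18 at day 6 (adjusted p = 1.8e-19), with means of 12.04, 0.928 and 0.897 CPM. It was higher in clone 66 on each day, by 0.57 ± 0.17, 1.02 ± 0.23 and 2.00 ± 0.25. The de novo methyltransferase gene *Dnmt3a* rose by 2.44 ± 0.17 to day 6, and the demethylation enzyme gene *Tet1* fell by 2.06 ± 0.20 to day 2 and then rose by 2.72 ± 0.19. *Ctcfl*, normally a germ line gene, was listed at 0 in every day 0 library and averaged 2.17 CPM at day 6. *Zfp445* and *Trim28*, which act with ZFP57, stood at 0.00 ± 0.10 and -0.01 ± 0.09 from day 0 to day 2 (adjusted p = 0.97 and 0.95). DNA methylation was not measured.

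The PLAG family has 2 other genes. *Plag1* took the opposite course to *Plagl1* from day 0 to day 2, with -1.23 ± 0.17 (adjusted p = 4.4e-08), and was 1.12 ± 0.23 higher in clone 66 at day 2 (adjusted p = 0.00030). *Plagl2* stood at 0.15 ± 0.14 (adjusted p = 0.35) from day 0 to day 2. Per library *Plagl2* and *Plag1* averaged 6.74 and 15.2 CPM.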

How the data were processed

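Total RNA libraries were prepared with a stranded kit and sequenced in pairs. The authors aligned the reads to GRCm38.p6 with STAR 2.7.0d and summed them over GENCODE M21 genes with featureCounts 1.6.2, ignoring strand, and deposited raw counts per gene without normalization. By default, featureCounts leaves out pairs that meet more than 1 gene, and per the file headers only pairs with both ends aligned to 1 chromosome were counted. A GENCODE M21 gene name was found for 55450 of the 55536 gene identifiers, and overlaps of exons were taken from the coordinates in the files.

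Clone, genotype, day and replicate number came from the labels. The series description calls the 3 replicates technical and the paper describes independent replicates. P-values therefore measure the spread between these libraries, which may be technical. No pair of replicates agreed within sampling noise (chi-square per degree of freedom of at least 12.02 in 36 pairs). Same-numbered *Rxra*WT and *Rxra*SA libraries of a clone and day deviated together, with correlations from 0.176 to 0.93 in 18 pairs over 9381 genes, all above the limit of 0.1, and the numbers were taken to pair the libraries. The main tests between days and between clones did not account for these pairs. The replicate block joined the libraries of a number across days, so it did not account for pairs within a day either.

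Counts were filtered with filterByExpr, scaled by TMM and tested with the quasi-likelihood test of edgeR 4.0.16 in its earlier form, with R 4.3.3. Following the paper's methods, the model held genotype by day and clone (16723 genes). Comparisons between or within clones used a term for each clone, genotype and day (17589 genes). Adjusted p-values under 0.05 were called. SE is the log2 fold change over the square root of F, and 95% intervals are normal. CPM were scaled by TMM library sizes, and FPKM divide them by exon length in kilobases. The fits were tested on simulated data. Alternatives were RLE factors, library size alone, edgeR's version 4 test, DESeq2 1.42.0, no filter, 1 CPM in 6 libraries, replicate blocks, clone-specific groups, no clone term and each library left out. Tables and sequences were handled with python 3.11.15, pandas 2.3.3 and scipy, and promoters and microRNAs came from RefSeq.

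The 10 genes, the gene lists and the tests were chosen with earlier results of these data known. Named genes are the 10 genes, *Rxra*, up to 4 called genes with the largest change per list and comparison, and the 2 most alike genes per tested gene. List genes outside this rule were named after their values were seen.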

Additional observations from a re-analysis of the deposited data

Results flagged for a closer look

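The change over time of 3 genes differed between clone 66 and clone 48 by a test of that difference in edgeR. From day 0 to day 2 the log2 difference was 1.21 for *Plagl1* (adjusted p = 0.029) and 0.72 for *Mest* (adjusted p = 0.041). The *Mest* call was lost in 20 of the 36 fits that left out 1 library, under library size alone (0.68, adjusted p = 0.056) and without a filter (0.74, adjusted p = 0.20), and the *Plagl1* call in 8 of the 36. From day 2 to day 6 the log2 difference was -2.49 for *Grb10* (adjusted p = 0.00084) and -1.34 for *Plagl1* (adjusted p = 0.012). Each clone was sequenced in its own pool, and clone and pool cannot be told apart. Groups of 3 libraries were not tested for outlying samples.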

How the results depend on the processing

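Of the counts of genes called in the 18 comparisons, 757 values under an alternative stayed within 1.5 times the main count and 38 did not. The latter were all between clones, where the counts were small. At day 0 the edgeR version 4 test called 2 genes in place of 1. At day 6 RLE factors, library size alone and the edgeR version 4 test called 2 in place of 1, the addition being *Grb10*. For the change from day 0 to day 2, library size alone and no filter called 1 in place of 2. For that from day 2 to day 6, a filter of 1 CPM in 6 libraries, which removed *Grb10*, called 1 in place of 2. For that from day 0 to day 6 the replicate block called 1 in place of 0. With libraries left out in turn the counts ran from 1 to 2 between clones at days 0 and 6, and from 0 to 2 for the clone difference from day 0 to day 2. No called log2 fold change changed sign, while 147 values that passed no test did, 129 of them between genotypes, at most 0.44 in size. Causes were not tested.

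Apart from the 3 results of *Sgce* and *Igf2r* given in the report, the replicate block changed no call. It could not be fitted for differences between clones on a day, since each block lies within a clone. Counting error limits *Grb10*, *Mest* and *Plagl1* most, and the 5 genes under the filter were not tested.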

Other observations

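Protein-coding neighbours within 150 kb of each gene were examined, a window chosen after the values of the 10 genes had been seen. Neighbours with fewer than 10 counts in every library were found both near genes without signal and near detected genes. They were 6 of 8 for *H19*, *Igf2* among them, and 3 of 4 for *Igf2*. For the detected genes they were 3 of 6 for *Mest*, 3 of 7 for *Igf2r*, 2 of 5 for *Plagl1*, 1 of 2 for *Grb10* and 0 of 3 for *Sgce*. The share of all protein-coding genes with such counts was not determined. Both neighbours of *Meg3* (*Dlk1* and *Rtl1*), all 3 of *Peg3* and 2 of 3 of *Ndn* had fewer than 10 counts in every library, the exception being the imprinted gene *Mkrn3* with 1439 counts in total. Near *H19* and *Igf2*, *Mrpl23* had 4601 counts and was counted in all 36 libraries. All 3 neighbours of *Sgce* were counted in every library, as were 3 of 5 for *Plagl1*, 3 of 7 for *Igf2r* and 2 of 6 for *Mest*. Next to *Grb10*, *Fignl1* averaged 111 CPM, and *Ddc*, also imprinted in some tissues, had 17 counts in total.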
